A study of Caenorhabditis elegans with 34 samples.

Results

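The pals, irg and F-box genes of Caenorhabditis elegans were followed across germ line mutants and stages on 34 spotted arrays with a red and a green channel. Members were all genes whose current symbol begins with pals-, irg-, fbxa-, fbxb- or fbxc-, read from 1 probe per gene. The arrays carried 25 of them among 13323 probes. These were 20 of the 38 protein-coding pals genes in the reference gene table, 4 of 8 irg genes and 1 of 48 fbxc genes. None of the 170 fbxa and 104 fbxb genes was matched to a probe by symbol, although only 5582 probes carried any gene name. Nothing measured here therefore describes the F-box classes as a whole.

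RNA of glp-4(bn2) worms, described in the labels as having no germ line, and of wild-type worms was hybridised against a reference RNA pool on 29 arrays. The array titles name the wild type N2. The glp-4 groups had 3 arrays at larval stage L2, 4 at L3, 4 at L4 and 4 of adults, and the wild-type groups had 3, 4, 4 and 3 in the same order of stages. The remaining 5 arrays paired RNA of fem-3(q23), a gain-of-function mutant whose germ line makes sperm, with RNA of fem-1(hc17), a loss-of-function mutant whose germ line makes oocytes. Both fem alleles are temperature sensitive, and the soma is female in both. Red was the reference pool on all 29 arrays and fem-3 on all 5 fem arrays, so an effect of dye on a probe cannot be told apart from the level against the pool, or from the fem strain. A dye effect that is the same on every reference array drops out of the difference between glp-4 and wild type.

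The pals genes share a protein signature of unknown biochemical function, and many lie side by side in the genome as recent duplicates. Several are switched on when intestinal cells are infected by microsporidia or the Orsay virus, in a programme called the intracellular pathogen response. The irg genes are named as infection response genes, and irg-4 and irg-5 are widely used readouts of the intestinal response to pathogenic bacteria. F-box proteins carry substrates to a cullin ubiquitin ligase, and the fbxa, fbxb and fbxc classes are very large in this worm.

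Values were present for 10155 to 11696 probes on an array with the pool and for 12215 to 13295 on a fem array. A few labels contradict each other: L3 is mentioned for wild-type L4 replicate 1 and for glp-4 L2 replicate 1, L34 is written for wild-type L4 replicate 4, and the time code of glp-4 adult replicate 1 is unlike that of the other adults. A glp-4 L2 array, replicate 2, pooled worm batches. The third fem array is marked as a repeat of the second and may not be a separate sample, and the first was scanned with other software and reconstructed. All L2 arrays named their reference REF-vjr and all adult arrays a mixed control, while L3 and L4 had both. The titles of all adult arrays and of some wild-type L3 arrays called the pool an N2 mixed control. The other titles did not give the strain of the pool. Values are log ratios taken as log2, which the sources used here do not state, and folds hold only if the base is 2. A level is a ratio to the pool, so levels of different genes cannot be ranked as amounts of RNA.

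The 20 pals genes on the arrays fell into a few chromosomal groups in the WBcel235 gene table. On chromosome I, pals-2, pals-3, pals-4, pals-5, pals-6, pals-7 and pals-14 lay in a run of 12 coding genes that were all pals genes. On chromosome III, pals-23, pals-24 and pals-25 lay within 7 coding genes, and pals-26, pals-27 and pals-28 within 4. The pair pals-29 and pals-30 lay within 3 coding genes on chromosome IV. The other 5, namely pals-31, pals-32, pals-33, pals-34 and pals-38, were on chromosome V. Probe sequences were not used here, and whether probes of similar pals genes also bound RNA of their neighbours was not tested.

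The irg genes split sharply against the reference pool. Every array that measured irg-4 lay 3.10 to 6.04 above the pool on the log2 scale (29 arrays), and every array that measured irg-5 lay 3.01 to 7.27 above it (27 arrays). Averaged over the 8 groups, irg-5 stood at 4.73 and irg-4 at 4.68, which would be 26.5-fold and 25.6-fold if the base is 2. Among 10877 probes with a mean in all 8 groups, 0 had a higher mean than irg-5, and irg-5 was the 1 probe above irg-4. The other irg genes lay close to the pool: irg-6 averaged 0.01 with arrays from -0.63 to 0.95, and irg-8 averaged -0.33 with 20 arrays spread from -1.83 to 2.59. The size of the irg-4 and irg-5 offset is that of the pool as well as of the worms, and a dye effect on these probes was not tested.

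**Figure D1:**
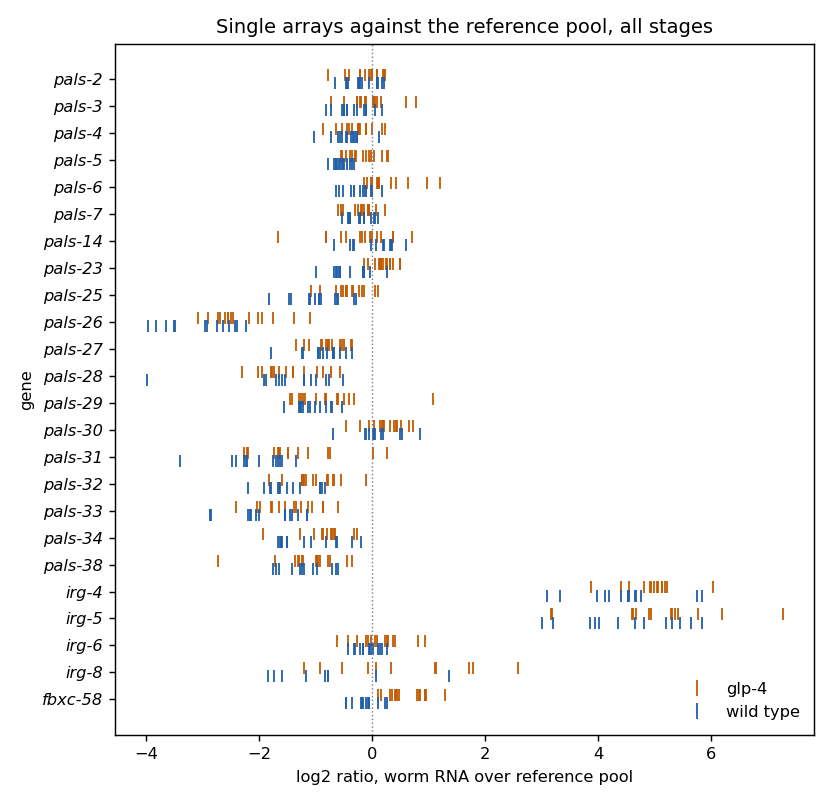
Log2 ratio of worm RNA over the reference pool (horizontal axis) for each member (rows), with 1 tick per array, glp-4 above wild type. All irg-4 and irg-5 ticks sit at 3.01 or higher, while pals-26, pals-27, pals-28, pals-32, pals-33, pals-34 and pals-38 stay below 0 on every array.

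In contrast, 7 pals genes lay below the pool on every array that measured them: pals-26, pals-27, pals-28, pals-32, pals-33, pals-34 and pals-38. The lowest was pals-26, with a mean of -2.65 over the 8 groups and only 47 of the 10877 probes lower. Next came pals-31 at -1.71, which was below the pool on 26 of 28 arrays, and pals-33 at -1.63. The chromosome I genes stayed nearer to the pool, with group averages between -0.36 for pals-5 and 0.02 for pals-6. The F-box gene fbxc-58 averaged 0.23.

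In adults, glp-4 worms had more RNA than wild type for 10 of the 24 members tested and less for 0 (limma, Benjamini-Hochberg adjusted p under 0.05). Of all 11402 probes tested in adults, 19.6% were called higher and 20.3% lower. The median difference of the 24 members was 0.58, beside 0.17 over all probes, and 21 of the 24 were above 0, beside 58.3% of probes. By prefix, 7 of 19 pals genes, 2 of 4 irg genes and fbxc-58 were called higher. The arrays of the 2 strains did not overlap for 11 of the 24 members, all with glp-4 higher, beside 19.6% of probes. With each array centred on its median all 10 were still called, while with only the adult arrays fitted 3 of the 10 were, namely pals-23, pals-32 and fbxc-58, and irg-8 was called in addition. In that last fit, calls over all probes fell from 4544 to 3051. In whole worms, a larger share of cells that make an RNA and more of it per cell cannot be told apart.

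The smallest adjusted p among pals genes was that of pals-23, a chromosome III gene. It read -0.07, 0.25, 0.15 and 0.32 in glp-4 adults, against -0.68, -0.99 and -0.57 in wild-type adults. The arrays did not overlap, and the difference was 0.91 ± 0.18 (SE) with an adjusted p of 0.000246 (limma). Its neighbour pals-25, known as an activator of the intracellular pathogen response, differed by 0.52 ± 0.29 and did not pass (limma adjusted p = 0.166). It was called higher under the replicate block and without wild-type adult replicate 2.

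The gene pals-5, whose promoter is the usual reporter of the intracellular pathogen response, read -0.30, 0.17, 0.27 and -0.16 in glp-4 adults, against -0.63, -0.51 and -0.77 in wild-type adults. All glp-4 adults were above all wild-type adults, by 0.63 ± 0.14 on average (SE, limma adjusted p = 0.000652). On the same stretch of chromosome I, pals-14 differed by -0.39 ± 0.44 and did not pass (limma adjusted p = 0.520). Its arrays ran from -1.66 to 0.37 in glp-4 adults, against -0.68 and 0.31 in the 2 wild-type adults that measured it.

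The 3 largest adult differences among the pals genes were those of pals-26, pals-31 and pals-32, which lay below the pool on nearly all arrays. The gene pals-26 read -1.09, -2.01, -1.38 and -2.19 in glp-4 adults, against -3.83, -2.23 and -2.96 in wild-type adults. Here the groups met closely, with the lowest glp-4 array just above the highest wild-type array, and the difference was 1.34 ± 0.37 (SE, limma adjusted p = 0.00536). Without wild-type adult replicate 2, the lowest of the 3, the difference was 0.93 and lost its call (limma adjusted p = 0.063, with 0.00113 to 0.063 over its alternatives).

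On chromosome V, pals-32 read -0.67, -1.25, -0.11 and -0.69 in glp-4 adults, against -2.19, -1.66 and -1.39 in wild-type adults. The groups were apart, by 1.07 ± 0.28 (SE, limma adjusted p = 0.00346). For pals-31 the readings were 0.26, -1.50, 0.02 and -0.78 in glp-4 adults, against -2.24, -1.59 and -1.34 in wild-type adults. These groups overlapped through glp-4 replicate 2, and the difference was 1.22 ± 0.37 (SE, limma adjusted p = 0.0107). The pals-31 call was lost without wild-type adult replicate 2 and with arrays scaled to equal spread.

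The rule that chose genes to name stopped at 5 pals genes, and the other called members, pals-6 (0.84 ± 0.26) and pals-34 (0.83 ± 0.31), are named after their values were seen. Their limma adjusted p-values were 0.0114 and 0.0394. Like pals-26 and pals-31, pals-6 lost its call without wild-type adult replicate 2. The pals-34 call was lost without glp-4 replicate 3 or 4 or wild-type replicate 2 or 4, and with arrays scaled to equal spread. Of the 5 tested chromosome V genes 3 were called, of the 7 on chromosome I 2, of the 5 tested on chromosome III 2, and of the 2 on chromosome IV 0. Of all probes tested in adults 19.6% were called higher, and sets of 2 to 7 genes are too small to compare chromosomes.

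**Figure D2:**
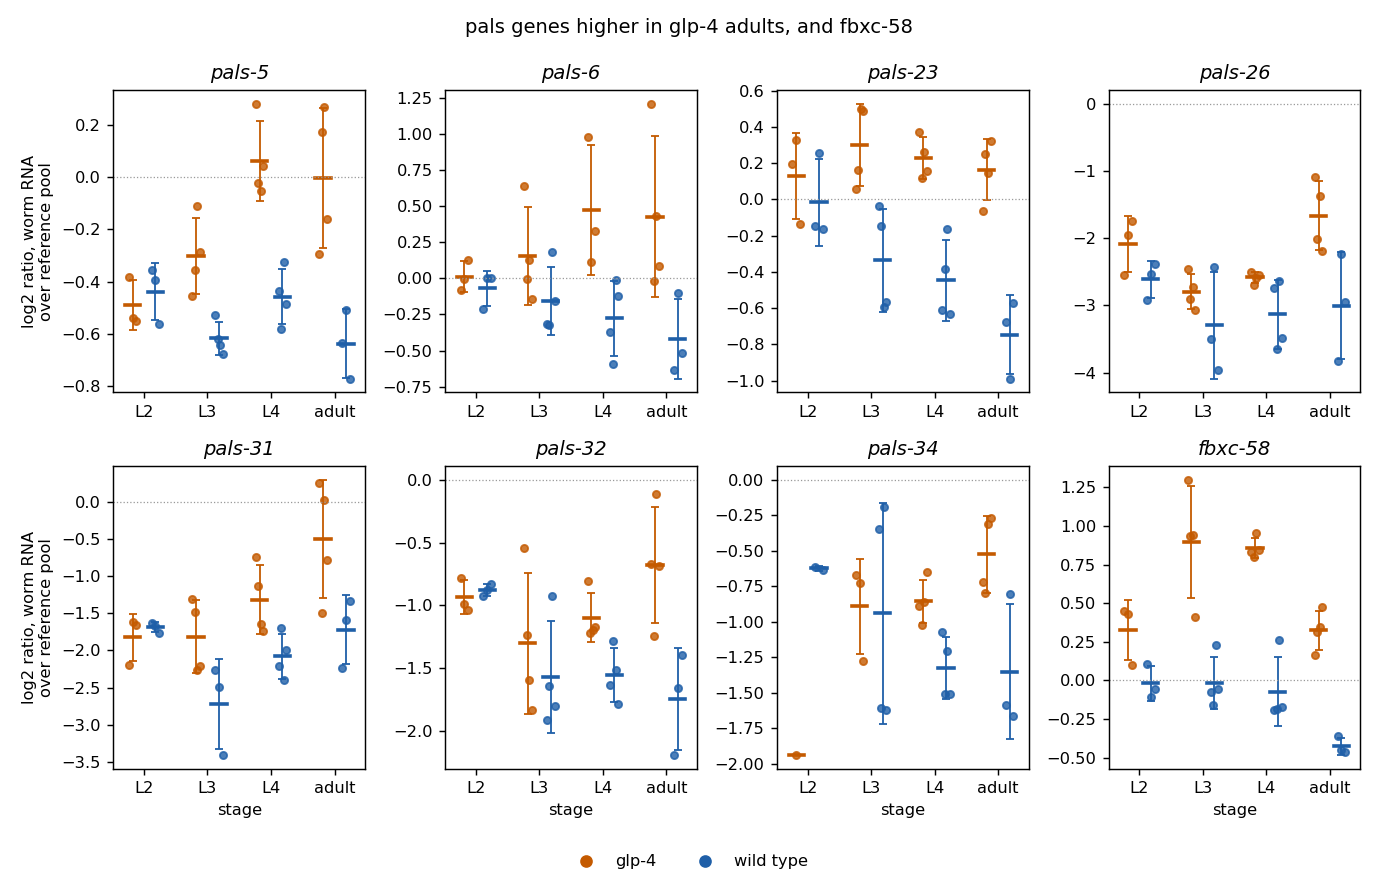
Log2 ratio to the reference pool (vertical axes, scaled per gene) by stage for the 7 pals genes called higher in glp-4 adults and for fbxc-58, with glp-4 left of wild type. Points are arrays, horizontal bars are group means and error bars are SD where a group has more than 1 array; the adult groups overlap only for pals-31.

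Of all members, irg-8 and irg-5 had the largest adult differences, with a wide spread between arrays. The gene irg-5 read 5.29, 5.31, 7.27 and 4.90 in glp-4 adults, against 4.82, 3.20 and 4.01 in wild-type adults. The groups were apart, though by little, and the difference was 1.68 ± 0.59 (SE, limma adjusted p = 0.0277). For irg-4 the readings were 3.88, 5.19, 6.04 and 5.14 in glp-4 adults, against 4.76, 3.34 and 3.10 in wild-type adults.

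The irg-4 groups overlapped, with glp-4 replicate 1 below wild-type replicate 2, and the difference was 1.33 ± 0.44 (SE, limma adjusted p = 0.0196). Both irg-4 and irg-5 lost their calls without glp-4 replicate 3, without wild-type replicate 3 and without wild-type replicate 4. Both calls were also lost with arrays scaled to equal spread. The lowest difference over all alternatives was 1.00 for irg-4 and 1.16 for irg-5. The 2 remaining irg genes did not pass (limma): irg-8 differed by 2.47 ± 0.99 over 3 glp-4 and 2 wild-type adult arrays (adjusted p = 0.062), and irg-6 by 0.47 ± 0.23 (adjusted p = 0.102). Both were called higher without glp-4 replicate 1, and irg-8 also under the replicate block and with only the adult arrays fitted.

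**Figure D3:**
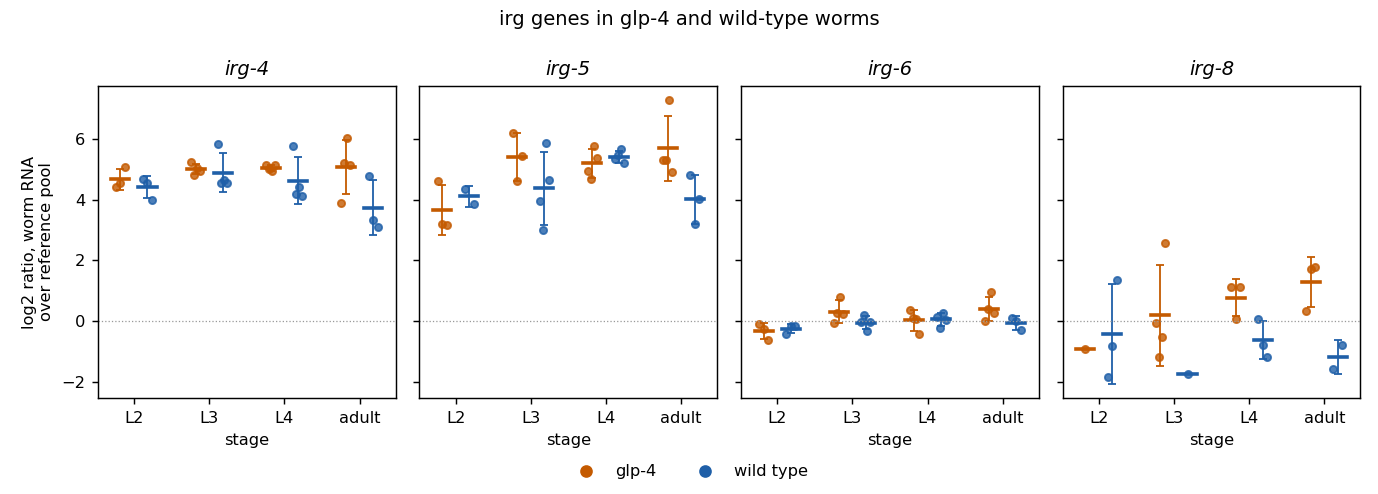
Log2 ratio to the reference pool (vertical axis, shared) by stage for the 4 irg genes, with glp-4 left of wild type; points are arrays, bars group means and error bars SD. In adults irg-5 runs from 4.90 to 7.27 in glp-4 and from 3.20 to 4.82 in wild type, and irg-6 and irg-8 lie nearer to the pool than irg-4 and irg-5 at every stage.

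The F-box gene fbxc-58, on chromosome IV, separated the strains from L3 onward. At L3 it read 1.30, 0.93, 0.94 and 0.41 in glp-4 worms, against -0.07, -0.16, 0.23 and -0.06 in wild type. At L4 it read 0.83, 0.80, 0.95 and 0.84 in glp-4 worms, against -0.20, -0.18, 0.26 and -0.17 in wild type. The groups did not overlap at either stage.

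In adults fbxc-58 read 0.16, 0.31, 0.35 and 0.47 in glp-4 worms, against -0.36, -0.45 and -0.46 in wild type, again without overlap. The differences were 0.91 ± 0.15 at L3, 0.93 ± 0.15 at L4 and 0.75 ± 0.16 in adults (SE), with limma adjusted p-values of 0.00118, 7.9e-05 and 0.000762. At L2 the difference was 0.35 ± 0.17 with overlapping arrays, and it did not pass (limma adjusted p = 0.503). The change of the strain difference between L2 and L3, 0.57 ± 0.23, did not pass either (limma adjusted p = 0.541), so an onset at L3 was not shown.

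At L4, 5 of 24 members were higher in glp-4 worms and 0 lower (limma), where 8.07% of all probes were called higher and 11.8% lower. Besides fbxc-58 they were pals-23 (0.67 ± 0.16), pals-5 (0.52 ± 0.13) and pals-3 (0.65 ± 0.21), with limma adjusted p-values of 0.00461, 0.00448 and 0.0314, and pals-6 (0.75 ± 0.26), which fell outside the naming rule. The arrays of the strains did not overlap for any of these 5. In all they did not overlap for 9 of the 24 members tested, each with glp-4 higher, beside 12.7% of probes with glp-4 higher and 14.6% with glp-4 lower. The pals-3 call was lost without glp-4 replicate 2 or wild-type replicate 1 or 3, and that of pals-6 without glp-4 replicate 1 or 3 or wild-type replicate 1 or 2. The pals-5 arrays read 0.28, -0.02, -0.05 and 0.04 in glp-4 L4 worms, against -0.44, -0.58, -0.33 and -0.49 in wild type.

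None of the 4 irg genes passed at L4 (limma), where irg-8 differed by 1.40 ± 0.89, irg-4 by 0.43 ± 0.41, irg-6 by -0.03 ± 0.21 and irg-5 by -0.22 ± 0.55. Nor did pals-25 (0.53 ± 0.27) or pals-14 (0.04 ± 0.36). Of the 24 members 19 were above 0 at L4, beside 55.1% of probes.

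At L3, 2 of 23 members were called, both higher in glp-4 worms, where 1.08% of probes were called higher and 2.15% lower. They were fbxc-58 and pals-23, which read 0.05, 0.16, 0.50 and 0.49 in glp-4 L3 worms, against -0.04, -0.15, -0.59 and -0.57 in wild type. The pals-23 groups did not overlap, and the difference was 0.64 ± 0.16 (SE, limma adjusted p = 0.0334). Its call was lost without any of 5 of the 8 L3 arrays, glp-4 replicates 2, 3 and 4 and wild-type replicates 3 and 4.

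The other genes given at every stage did not pass at L3 (limma): pals-25 differed by 0.72 ± 0.27, pals-5 by 0.32 ± 0.13, pals-14 by -0.20 ± 0.36, irg-5 by 1.04 ± 0.59, irg-6 by 0.37 ± 0.21 and irg-4 by 0.12 ± 0.41. The arrays of the strains did not overlap for 4 of the 23 members tested, pals-5, pals-23, pals-25 and fbxc-58, beside 4.98% of probes with glp-4 higher and 5.61% with glp-4 lower. Within each wording of the reference, with 4 arrays per stage and wording, 0 members were called at L3 and 0 at L4. In 3 of these 4 fits 0% of all probes were called, so they say nothing about the members, and at L4 under REF-vjr 6.15% were. In these fits pals-23 differed at L4 by 0.65 under the mixed control and 0.70 under REF-vjr, and fbxc-58 by 1.00 and 0.86.

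At L2, 0 of 22 members were called by limma, and 1 had an unadjusted p under 0.05, as did 10.7% of probes, where 0.195% of probes were called higher and 0.224% lower. That member was pals-33, at 0.84 ± 0.39 with a limma adjusted p of 0.442, named after its value was seen. The 22 members were evenly placed, with 11 above 0 and a median of 0.01. Among them irg-4 differed by 0.27 ± 0.47, irg-5 by -0.44 ± 0.71, irg-6 by -0.08 ± 0.24, pals-5 by -0.05 ± 0.15, pals-14 by -0.37 ± 0.47 and pals-25 by 0.30 ± 0.31.

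**Figure D4:**
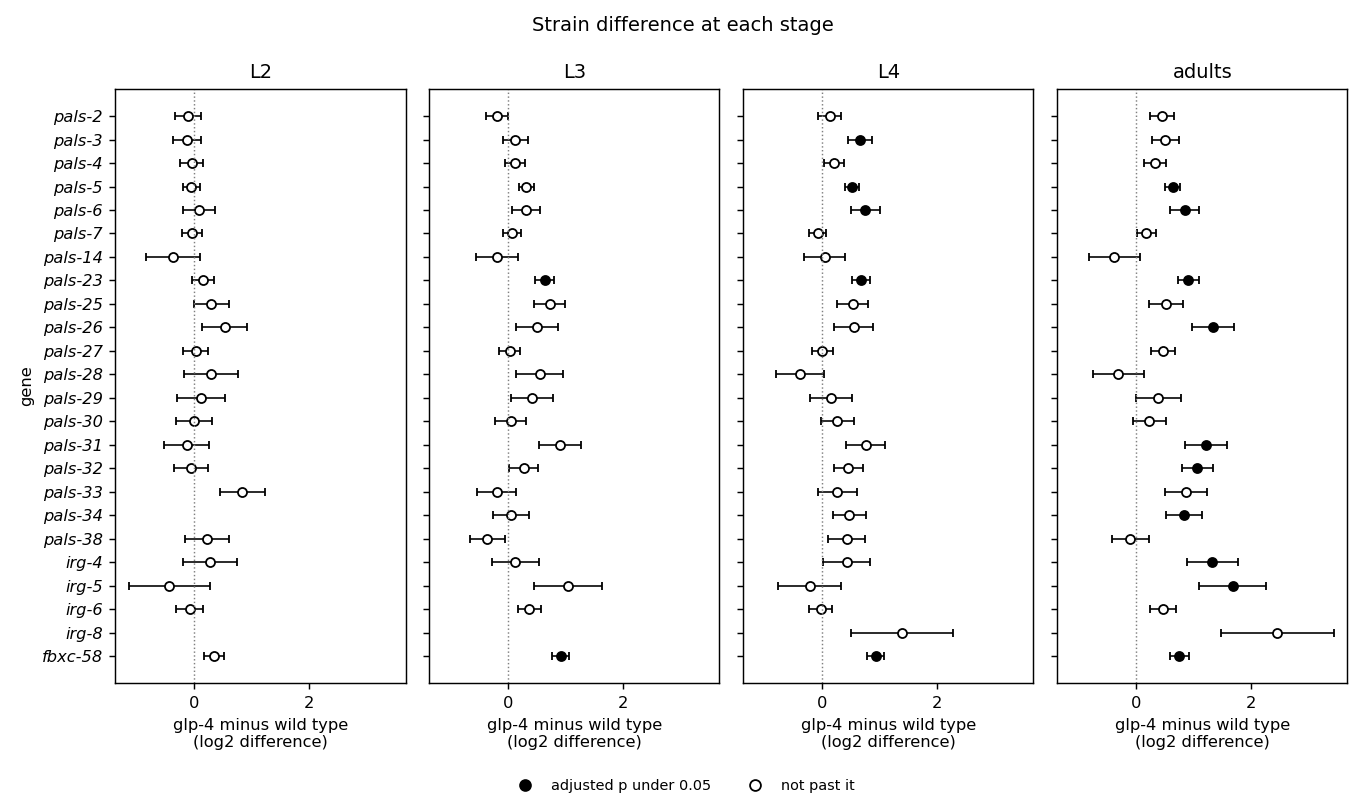
Difference of glp-4 minus wild type on the log2 scale (horizontal axes) for each member (rows) at L2, L3, L4 and in adults. Points are limma estimates, bars are SE and filled points passed an adjusted p of 0.05; the number of filled points is 0, 2, 5 and 10 in the order of stages.

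Across stages 11 members were called in at least 1 strain comparison, and 13 of those tested in adults were called in none. Of all probes tested in adults, 44.2% were called at some stage, so the members' share was near that of all probes. Of the 24 members tested in adults, 4 were called in adults and at L4, and 6 in adults only. Of the probes tested in adults, 15.6% and 24% were called in these ways, close to the members' shares. A call at 1 stage and not at another does not show a change, and in tests of the change itself 0 members passed between L2 and L3, L3 and L4, or L4 and adults (limma). Of all probes 0%, 2.63% and 6.58% passed these tests. Unadjusted p-values under 0.05 numbered 1 of 22, 0 of 23 and 1 of 24 members, beside 7.81%, 9.85% and 21.4% of probes.

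The member with an unadjusted p under 0.05 between L4 and adults was irg-5, whose strain difference was 1.90 ± 0.81 larger in adults (limma adjusted p = 0.170). For irg-4 that change was 0.90 ± 0.60, for irg-6 0.50 ± 0.31 and for irg-8 1.07 ± 1.33, none past the threshold. For pals-5 it was 0.11 ± 0.19, for pals-14 -0.43 ± 0.57 and for pals-25 -0.01 ± 0.40.

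The median over the pals genes on an array was read beside the median of all probes, which lay between -0.22 and 0.05 on the arrays with the pool. The pals median ran from -0.55 to -0.37 in glp-4 L2 worms, against -0.57 to -0.39 in wild-type L2 worms. It ran from -0.65 to -0.34 in glp-4 L3 worms, against -0.92 to -0.53 in wild type, and from -0.74 to -0.40 in glp-4 L4 worms, against -0.95 to -0.75 in wild type. In adults it ran from -0.49 to -0.27 in glp-4, against -0.90 to -0.70 in wild type. Arrays of the strains overlapped at L2 and L3 and were apart in adults. At L4 they were only barely apart, at -0.741 for the lowest glp-4 array and -0.7525 for the highest wild-type array. An L4 median was over 18 or 19 pals genes, depending on the array.

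Genes listed as markers of other tissues also differed between the strains. The lists were chosen with earlier results of these data known, so they are no independent check. All 5 germ line markers with a probe were lower in glp-4 adults (limma), where 20.3% of all probes were called lower. Their array medians ran from -2.44 to -1.74 in glp-4, against 0.69 to 1.03 in wild type. The intestine list came down to carboxylesterase genes of the cest family, taken by prefix, and cpr-9. Whether each of them marks the intestine was not tested. Of 28 tested, 12 were higher and 1 lower in glp-4 adults, beside 19.6% and 20.3% of all probes. Array medians ran from 0.35 to 0.77 in glp-4, against -0.32 to -0.13 in wild type. At L4 12 of 28 were higher and 0 lower, beside 8.07% and 11.8% of all probes. The L4 array medians ran from 0.89 to 1.15 in glp-4, against -0.07 to 0.58 in wild type. The listed intestine genes ges-1, elt-2, vit-2, vit-6 and asp-1 had no named probe. The epidermal marker bus-6, the only 1 of 5 listed with a probe, was 1.60 ± 0.25 higher in glp-4 adults (limma adjusted p = 1.59e-05). It was not called at L3 (-0.09) or L4 (0.61). The part of these marker differences in the pals, irg and fbxc-58 results was not tested.

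Between stages of the same strain few members were called, which does not show that the others stayed the same. In glp-4 worms from L2 to L3, fbxc-58 rose by 0.57 ± 0.16 and pals-38 fell by 1.03 ± 0.32 (limma adjusted p-values 0.0269 and 0.0449), where 6.71% of probes were called higher and 3.57% lower. The pals-38 arrays read -0.97, -2.72, -1.36 and -1.72 at L3, against -0.45, -0.75 and -0.79 at L2, with no overlap. Leaving out any of L2 replicates 1, 2 and 3 or L3 replicates 2 and 4 ended the pals-38 call, and leaving out any of L2 replicates 2 and 3 or L3 replicates 1, 2 and 3 ended that of fbxc-58. The pals-38 call was also lost with the reference wording as a block (-0.79) and with arrays centred (-0.98), and that of fbxc-58 with arrays scaled to equal spread (0.49). With only the arrays compared fitted both calls were lost and pals-33 was called in their place. In the same step irg-5 differed by 1.74 ± 0.63 and irg-6 by 0.64 ± 0.23, and neither passed (limma adjusted p-values 0.0837 and 0.0692). With arrays centred, scaled to equal spread or without L3 replicate 1, irg-6 was called. With the reference wording as a block or without L2 replicate 1, irg-5 was called.

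From L3 to L4 in glp-4 worms 0 of 24 members were called by limma, with 0.367% of probes called and 2 members at an unadjusted p under 0.05, beside 6.75% of probes. Among these was pals-5, at 0.36 ± 0.13. From L4 to adults in glp-4 worms, fbxc-58 fell by 0.53 ± 0.15 (limma adjusted p = 0.0293), where 2.49% of probes were called higher and 5.55% lower. Its 4 adult arrays, 0.16 to 0.47, were all below its 4 L4 arrays, 0.80 to 0.95. The call was lost without any of adult replicates 1, 2 and 3 or L4 replicates 2, 3 and 4. It was also lost with the reference wording as a block (-0.42), where pals-26 was called instead, and with arrays centred, scaled to equal spread or fitted alone.

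In wild type 0 of 23 members were called by limma from L2 to L3 and 0 of 23 from L3 to L4, with 0.181% and 7.25% of probes called. Members at an unadjusted p under 0.05 numbered 4 and 1, beside 8.09% and 19.3% of probes. From L2 to L3 all 19 pals genes tested in wild type had values below 0, with a median of -0.32, where 48.3% of probes were above 0. From L4 to adults pals-27 fell by 0.59 ± 0.20 (limma adjusted p = 0.037), where 10.2% of probes were called higher and 11.8% lower. It read -1.79, -1.22 and -1.25 in wild-type adults, against -0.95, -0.81, -0.67 and -0.87 at L4, with no overlap. The call was lost without adult replicate 2 or 4 or L4 replicate 2, 3 or 4. It was also lost with the reference wording as a block and with arrays centred, scaled to equal spread or fitted alone. With equal spread, and without adult replicate 2, irg-4 was called lower in place of pals-27. In the same step irg-5 differed by -1.40 ± 0.59, irg-4 by -0.89 ± 0.44 and fbxc-58 by -0.35 ± 0.16, none past the threshold (limma adjusted p-values 0.096, 0.160 and 0.127). All stage steps into L3, and out of L4, also cross the wordings of the reference in part.

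Between the fem strains 2 of 25 members were higher in fem-3 worms and 0 lower (limma), where 19.2% of all probes were called higher and 15.5% lower. The share of members called was therefore below that of all probes. The median over the members was 0.32, beside 0.16 over all probes, and 20 of 25 were above 0, beside 60.2% of probes. Of the sperm markers 8 of 8 were higher in fem-3 worms. They were chosen with earlier results of these data known, so they are no independent check of the labels.

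The gene pals-24, measured only on the fem arrays, read 1.13, 0.70, 1.69, 1.72 and 1.93 as fem-3 over fem-1. All 5 arrays were above 0, and the mean was 1.43 ± 0.21 (SE, limma adjusted p = 0.00227), which would be 2.70-fold if the base is 2. For pals-5 the readings were 1.49, 1.33, 0.41, 0.71 and 0.39, also all above 0. The pals-5 mean was 0.87 ± 0.21 (SE, limma adjusted p = 0.019), and its call was lost without replicate 2 or without replicate 4.

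The irg genes did not pass between the fem strains (limma). The nearest was irg-6, which was above 0 on all 5 arrays at 1.89, 0.40, 1.26, 0.52 and 0.05, with a mean of 0.82 ± 0.28 and an adjusted p of 0.0578. The gene irg-4 was below 0 on 4 of 5 arrays, at -0.69 ± 0.28 (adjusted p = 0.0917), while irg-5 averaged 0.55 ± 0.37 and irg-8 0.50 ± 0.36. Without replicate 2, which may be the same sample as replicate 3, irg-4 was called lower, and without replicate 1 irg-5 was called higher. The F-box gene fbxc-58 averaged 0.34 ± 0.17 (limma adjusted p = 0.155), pals-14 0.19 ± 0.30 and pals-25 0.02 ± 0.18. In all, 8 members had every fem array above 0, beside 27.2% of probes.

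**Figure D5:**
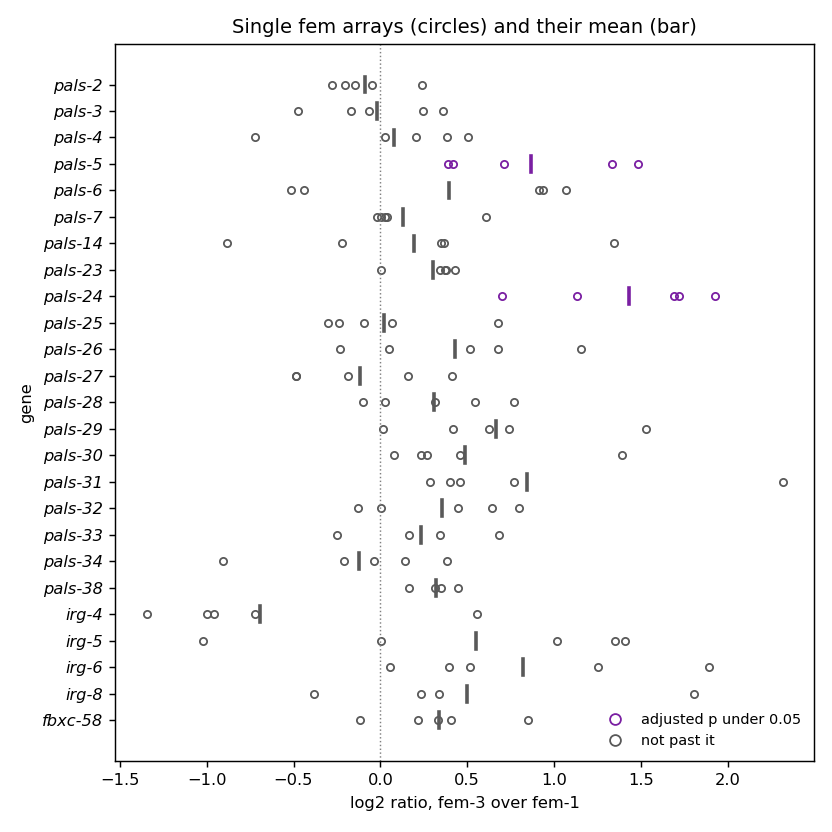
Log2 ratio of fem-3 over fem-1 (horizontal axis) for each member (rows); circles are arrays and the bar is their mean. Only pals-5 and pals-24, drawn in purple, passed an adjusted p of 0.05, and all their arrays lie at 0.39 or higher.

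Other genes of the intracellular pathogen response came from a list of 19, of which 7 had a probe. In adults 0 of 6 tested were called between the strains by limma, where 19.6% of all probes were called higher and 20.3% lower. The median difference of the 6 was 0.36, beside 0.17 over all probes. Those nearest were the purine nucleoside phosphorylase gene pnp-1, a repressor of the response, at 1.09 ± 0.50, and C53A5.11 at 0.56 ± 0.26 (limma adjusted p-values 0.0855 and 0.0883). At L2, L3 and L4 0 of 5, 0 of 6 and 0 of 5 were called. Of all probes 0.195%, 1.08% and 8.07% were called higher at these stages and 0.224%, 2.15% and 11.8% lower. Counts of 0 among so few genes do not show that the list stayed unchanged. Between the fem strains 2 of 7 were called, F26F2.4 at 0.73 ± 0.17 and pnp-1 at 0.66 ± 0.14 higher in fem-3 worms (limma adjusted p-values 0.0218 and 0.0113). Of all probes 19.2% were called higher there, so 2 of 7 genes do not set this list apart.

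Of other substrate adaptor families only fbxl-2, fbxl-3 and fbxl-4, F-box genes with leucine-rich repeats, had a probe. The gene fbxl-2 went the other way from fbxc-58: it was lower in glp-4 worms by -1.32 ± 0.25 at L3, -1.63 ± 0.25 at L4 and -3.75 ± 0.26 in adults (limma adjusted p-values 0.00306, 2.66e-05 and 1.08e-09). It was also lower in fem-3 worms, at -1.94 ± 0.17, as was fbxl-3, at -0.67 ± 0.14 (limma adjusted p-values 0.000235 and 0.0113). Lists of the core cullin ligase and of innate immune signalling genes had 0 members with a named probe and were not analysed here.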

How the data were processed

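The authors deposited 1 table of log ratios of red over green per probe and array, taken here as log2; no source used here states the base, the normalization or the spot filter. Arrays were scanned with GenePix, and fem replicate 1 with ScanAlyze, per the labels. Signs were turned on the 29 reference arrays to read worm RNA over pool, and values were otherwise used as deposited. The members and lists were chosen with earlier results of these data known.

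Probes were named from the platform annotation and matched by gene ID to the WBcel235 gene table (5559 probes). Each probe was fitted with limma 3.58.1 in R 4.3.3, the 29 reference arrays as 8 group means sharing 1 spread and the 5 fem arrays as a mean against 0. At least 2 values per group, or 3 fem values, were required. Tests were two-sided, with Benjamini-Hochberg adjustment over all probes tested and a threshold of 0.05. The procedure was tested on simulated data. Precision is set by the number of arrays, and the p-values reflect only how far these samples varied, part of which may be technical.

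Genes were named by rule: in adults and the fem comparison the members called with the smallest adjusted p, at most 5 per prefix and direction, elsewhere at most 3, and in every comparison all irg genes, pals-5, pals-14 and pals-25. Same-numbered arrays of the 2 strains deviated together with correlations of -0.05 to 0.22, and of neighbouring stages with -0.19 to 0.35, so numbers were not taken as pairs. Alternatives were array centring, equal spread, complete probes, fitting only the arrays compared, the reference wording, a replicate block and leaving out each array. After the fit within each wording on the arrays compared had been seen, a version with all arrays of that wording was added, and both are given.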

Additional observations from a re-analysis of the deposited data

Results flagged for a closer look

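In 13 of 134 combinations of a member and a group of 4 or 5 arrays, an end array lay far from its nearest neighbour relative to the range of the group (Dixon's criterion). Chance flags about 1 in 20 groups. In glp-4 worms these were pals-29 at L3 replicate 1 (1.08, nearest -1.26), pals-3 at L4 replicate 2 (0.77), pals-32 at L4 replicate 1 (-0.81), pals-38 in adult replicate 1 (-0.35) and irg-5 in adult replicate 3 (7.27, nearest 5.31). In wild type they were irg-4 at L3 replicate 1 (5.83, nearest 4.66), pals-7 at L3 replicate 3 (-0.15), pals-33 at L3 replicate 2 (-2.85, nearest -1.54) and fbxc-58 at L4 replicate 3 (0.26, nearest -0.17). On the fem arrays they were pals-31 at 2.32 (nearest 0.77) and pals-23 at 0.006 in replicate 1, pals-30 at 1.39 in replicate 3 and pals-7 at 0.61 in replicate 5.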

How the results depend on the processing

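Of 23 member calls, 4 stayed under every alternative listed at the start: pals-23, pals-32 and fbxc-58 in adults and pals-24 between the fem strains. Over 311 recomputed values 220 kept the call, 91 lost it and 0 changed sign. The L3 and L4 calls were also tried in fits within each reference wording. In all of these fits but L4 under REF-vjr 0 probes were called, so losses there were fixed in advance. At L4, pals-5, pals-23 and fbxc-58 each kept the call in 14 of 16 alternatives and lost it only within a wording. The 10 adult calls became 6 with arrays scaled to equal spread, where pals-31, pals-34, irg-4 and irg-5 were lost. They became 4 with only the adult arrays fitted, of which 3 were among the 10 and irg-8 was gained. Over all 11402 probes, calls also fell in these fits, from 4544 to 3639 and 3051. With an array left out the adult count was 7 to 13. Counts ran from 3 to 5 at L4, 1 to 2 at L3, 0 to 3 for glp-4 L3 minus L2, 0 to 1 for adult minus L4 in each strain and 1 to 4 for the fem arrays when an array was left out, and stayed at 0 elsewhere. With only the arrays compared fitted, the count was 0 at L3, 1 for glp-4 L3 minus L2 (pals-33, neither of the 2 genes called before) and 0 for adult minus L4 in each strain. Calls over all probes fell there too, at L3 from 359 to 29, so that count of 0 says little about the members. For glp-4 L3 minus L2 they fell from 1080 to 240. For adult minus L4 they fell from 911 to 488 in glp-4 and from 2472 to 471 in wild type. Centring gave 0 for adult minus L4 in each strain and 1 for the fem arrays, which also had 1 without replicates 1 and 3 together. Equal spread gave 0 for glp-4 adult minus L4, and the wording as a block 0 for wild-type adult minus L4; under that block glp-4 adult minus L4 kept a count of 1, with pals-26 in place of fbxc-58, and glp-4 L3 minus L2 a count of 2, with irg-5 in place of pals-38. With the replicate block, glp-4 adult minus L4 had 2 calls and adults 12 between the strains, and the block moved no other count by over 1.5 times.

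Within each reference wording, fitting only the arrays compared, 0 members were called at L3 and 0 at L4. Of all probes 0 of 10371 and 0 of 9709 were called at L3, and 0 of 10296 and 654 of 10628 at L4 (mixed control, then REF-vjr). In the version added after that result was seen, with all arrays of a wording fitted, 0 were called at L3 under either wording, and 1 at L4 under the mixed control and 1 under REF-vjr, fbxc-58 in both. The cause of these changes was not tested, and these fits also had fewer arrays. A mean over several probes of a gene was not run, since each member had 1 probe. Signal over background was not used here, so dim spots could not be told from bright ones.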
